A study of Mus musculus with 2 samples.

Results

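The genes of the respiratory chain and the ATP synthase were examined in mouse cells undergoing reprogramming to induced pluripotent stem cells. The 105 genes were taken by symbol, as every gene of the deposited table with a symbol of the following kinds. These were Nduf (mainly subunits and assembly factors of complex I), Sdha to Sdhd (complex II) and Uqcr (complex III). Further kinds were Cox4 to Cox8 (complex IV), Atp5 (mainly the ATP synthase) and the protein-coding genes of the mitochondrial genome (mt-). Ndufa4 and Ndufa4l2 were counted with complex IV, and Atp5s and Atp5sl were kept apart from the ATP synthase. The members were 105 of 17408 genes, of which 92 lie in the nuclear genome and 13 in the mitochondrial genome, and these sets are described apart. Mouse embryonic fibroblasts had been reprogrammed with STEMCCA, which expresses Pou5f1, Sox2, Klf4 and Myc together when doxycycline is given, in mouse ESC medium with LIF, ascorbic acid and doxycycline. At day 16 the whole, unsorted population was measured by droplet single-cell 3′ RNA sequencing in 2 libraries that the labels place in 1 group (replicates 1 and 2, numbered by order of listing). The study used 2 independent STEMCCA systems, which the labels do not match to the libraries, and strain, sex and embryo age are not given. No unreprogrammed fibroblasts or established pluripotent cells were in the series, and all comparisons are between cell states within the same libraries.

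The respiratory chain passes electrons from NADH (complex I) and succinate (complex II) through ubiquinone to complex III, then by cytochrome c to oxygen at complex IV, and the ATP synthase uses the resulting proton gradient to make ATP. The subunits are encoded in both genomes: complex II entirely by nuclear genes, the other complexes by nuclear genes together with a few mitochondrial ones, which are transcribed from both strands of a small circular DNA into long precursors that are then cut. Several complex IV subunits exist as isoforms used in particular tissues or oxygen conditions. Pluripotent stem cells are known for a strong use of glycolysis, and reprogramming is known to change both the glycolytic and the respiratory apparatus.

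The 2 libraries held 3109 and 3914 cells with 54145377 and 64654306 UMIs (unique molecular identifiers, each counting 1 captured RNA molecule), and single cells held 4753 to 60990 UMIs. There were 12 cell barcodes that occurred in both libraries. Cells were clustered without the respiratory genes, the mt- genes and the related pathway genes, so that these did not define the states, although the states still come from other genes of the same cells. Of 15 clusters, 11 had at least 30 cells in both libraries. Cluster 7 (146 and 390 cells) was called pluripotent-like, as 14 of its 15 markers were at least 2-fold above the other cells. Cluster 10 (250 and 166 cells) was called fibroblast-like from 9 of 11 markers, although Spp1, Mmp3 and Col10a1 led it. It is not the only cluster with such genes: the smooth-muscle-like cluster 4 had 10 of the 11 fibroblast markers up beside 7 of 7 smooth muscle markers, and the fibroblast gene Dcn was 0.275 and 0.309 in cluster 10 against 0.399 and 0.488 in all cells outside cluster 7. In cluster 7, 6 of 8 mitotic and 4 of 8 S-phase markers were also at least 2-fold higher. The pluripotency gene Nanog averaged 1.10 and 1.14 UMIs per 10000 in cluster 7 and 0.018 and 0.015 in all other cells, and the collagen gene Col1a1 was 0.612 and 0.356 in cluster 7 and 28.5 and 21.6 in cluster 10. The pluripotent-like cells were deeper, with median UMIs of 28768 and 26127.5 against 15214 and 13649.5 in all other cells, and comparisons within a window of depth are given where they move a value. In the libraries the median share of mitochondrial RNA was 4.0% and 4.02%, and cells of 9% or more had been left out by the authors, which caps the mt- genes.

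The promoters of 4 members are shown here because these genes were called in the comparison that follows, 2 of them higher and 2 lower in pluripotent-like cells, and because they differ in the motifs they hold. RefSeq promoters (GRCm38.p6, 250 bases before to 50 bases after the start) were found for 76 of the 92 nuclear members. They were searched on both strands for motifs of factors known to act on nuclear respiratory genes, and the matching letters are in capitals. Uqcrc1 (chr9:108936398-108936697, plus strand) held the NRF1 motif from bases 5 and 30 after its start. Ndufa3 (chr7:3617123-3617422, plus strand) held the YY1 motif from base 22 after its start, Uqcrh (chr4:116075021-116075320, minus strand) held the ETS motif as its reverse complement, 11 bases before its start, and Cox5a (chr9:57520982-57521281, plus strand) held none of the motifs searched.
Uqcrc1: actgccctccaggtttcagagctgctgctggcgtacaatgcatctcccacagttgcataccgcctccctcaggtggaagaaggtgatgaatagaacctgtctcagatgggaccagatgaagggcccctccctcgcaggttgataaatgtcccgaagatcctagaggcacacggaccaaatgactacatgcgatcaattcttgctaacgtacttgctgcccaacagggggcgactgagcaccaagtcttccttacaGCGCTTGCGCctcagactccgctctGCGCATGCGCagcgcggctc
Ndufa3: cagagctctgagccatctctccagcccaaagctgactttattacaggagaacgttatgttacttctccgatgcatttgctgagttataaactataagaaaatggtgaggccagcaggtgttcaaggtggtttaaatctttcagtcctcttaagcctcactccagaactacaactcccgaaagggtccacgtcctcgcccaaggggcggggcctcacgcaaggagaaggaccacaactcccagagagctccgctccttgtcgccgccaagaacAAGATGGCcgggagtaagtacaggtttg
Uqcrh: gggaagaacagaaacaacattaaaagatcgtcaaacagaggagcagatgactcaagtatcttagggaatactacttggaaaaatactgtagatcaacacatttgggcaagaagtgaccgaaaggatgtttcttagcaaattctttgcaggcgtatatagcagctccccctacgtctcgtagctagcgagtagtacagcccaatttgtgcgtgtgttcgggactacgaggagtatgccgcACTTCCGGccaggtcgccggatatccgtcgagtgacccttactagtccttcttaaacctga
Cox5a: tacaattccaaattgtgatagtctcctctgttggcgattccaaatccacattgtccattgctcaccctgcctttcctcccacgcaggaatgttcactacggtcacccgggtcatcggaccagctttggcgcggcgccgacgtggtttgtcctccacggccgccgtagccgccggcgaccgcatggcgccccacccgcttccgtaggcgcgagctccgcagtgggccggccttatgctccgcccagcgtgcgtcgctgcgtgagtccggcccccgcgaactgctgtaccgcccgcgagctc

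The NRF1 motif was present in 18 of the 76 promoters (23.7%), against 4.78% of all 27025 promoters and 12.5% of the promoters of the genes tested. The YY1 motif (AAGATGGC) was in 10 of 76 (13.2%, against 2.88% and 5.64%). For the ETS motif of GABPA (CCGGAAGT) there were 5 matches (6.58%, against 4% and 9.93%), and the ERR motif (TCAAGGTCA) had 2 (2.63%, against 0.407% and 0.218%). Of the 76 members with a promoter, 71 were tested below for a difference. The NRF1 motif was in 8 of 37 that were higher in pluripotent-like cells, in 1 of 9 that were lower and in 7 of 25 that were not called either way. The YY1 motif was in 7 of 37, 1 of 9 and 2 of 25. These shares describe the letters in the windows and were not tested between the groups.

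Summed over members, nuclear respiratory transcripts made up a larger share of all UMIs, and mitochondrial ones a smaller share, in pluripotent-like cells than in all other cells. As the pluripotent-like cells held more UMIs, these shares do not give the number of transcripts per cell. The 92 nuclear members together made up 319 and 301 UMIs per 10000 in the pluripotent-like cells of replicates 1 and 2, and 268 and 265 in all other cells, a ratio of 1.16 ± 0.04 (SD, n = 2 libraries). The 13 mitochondrial members summed to 332 and 348 against 419 and 416, a ratio of 0.815 ± 0.032. The mitochondrial to nuclear ratio was therefore 1.04 and 1.16 against 1.56 and 1.57. In each of these sums the libraries of the 2 states did not overlap, but 2 libraries cannot give a p under 0.5 in the exact two-sided sign-flip test, and p = 0.5 was found for all of them. Within cells of 20000 to 40000 UMIs the ratios were nearer to 1, at 1.12 for the nuclear and 0.899 for the mitochondrial sum, and against the proliferating clusters 5, 6 and 8 alone they were 1.11 and 0.879. The part of depth and of the cell cycle in the differences was not tested beyond these values.

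Complex IV had the clearest nuclear rise in its sum, at 105 and 100 UMIs per 10000 in pluripotent-like cells against 82.0 and 81.5. Complex I summed to 89.0 and 82.7 against 77.0 and 75.6, and the ATP synthase to 84.7 and 80.4 against 72.2 and 71.5. Complex III was 35.1 and 31.7 against 31.7 and 31.6, so replicate 2 hardly differed. Complex II, the one complex without a mitochondrially encoded subunit, was 3.13 and 3.21 against 3.25 and 3.17, and its libraries overlapped. Of the mitochondrial sums, the lone complex III gene mt-Cytb differed most in ratio, at 21.2 and 21.4 against 32.2 and 29.0.

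**Figure D1:**
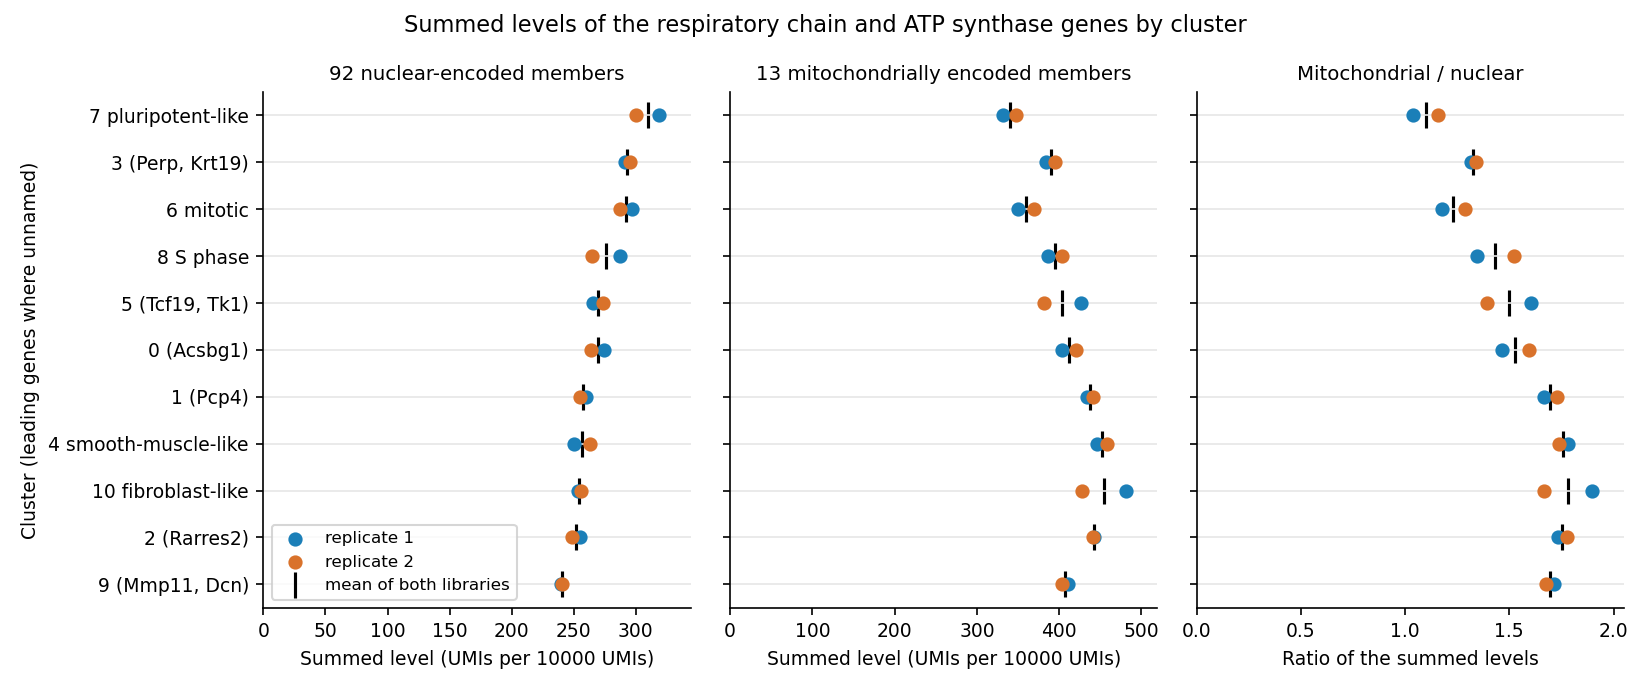
Summed levels (UMIs per 10000 UMIs, x axes) of the 92 nuclear and 13 mitochondrial members and their ratio in each of the 11 clusters (rows), with 1 point per library and a bar at the mean of both. The pluripotent-like cluster 7 has the highest nuclear sum (309.8 ± 12.9) and the lowest mitochondrial sum (339.9 ± 11.7).

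Gene by gene, pluripotent-like cells were compared with all other cells by limma on log2(level + 0.1), where a level is the mean over cells of the UMIs per 10000 and 7131 genes with a mean level of at least 0.1 were tested. Of the 92 nuclear members, 85 passed this filter, 42 of them were higher in pluripotent-like cells, 13 lower and 30 not called at an adjusted p of 0.05. These were 49.4% higher and 15.3% lower, beside 31.6% higher and 46.2% lower among all genes tested, where 77.8% were called. With so large a share of all genes called, a call alone says little, and the sizes carry more. The same shares of all genes stand beside the counts by complex and by list against all other cells that follow. The median log2 difference of the 85 was 0.21 (0.23 and 0.19 in the libraries), against -0.16 for all genes, and it stayed between 0.10 and 0.38 under the alternatives run. At least 1.5-fold differences were seen in 13 members that were higher and 3 that were lower (17.4% and 30.8% of all genes). The 4 profiles behind each test come from 2 libraries, and limma draws the spread of each gene towards that of all genes tested. The p-values and standard errors therefore rest on a spread between these libraries that is largely pooled over genes. They can understate the spread of a single gene. Standard errors of log2 differences were between 0.09 and 0.14.

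**Figure D2:**
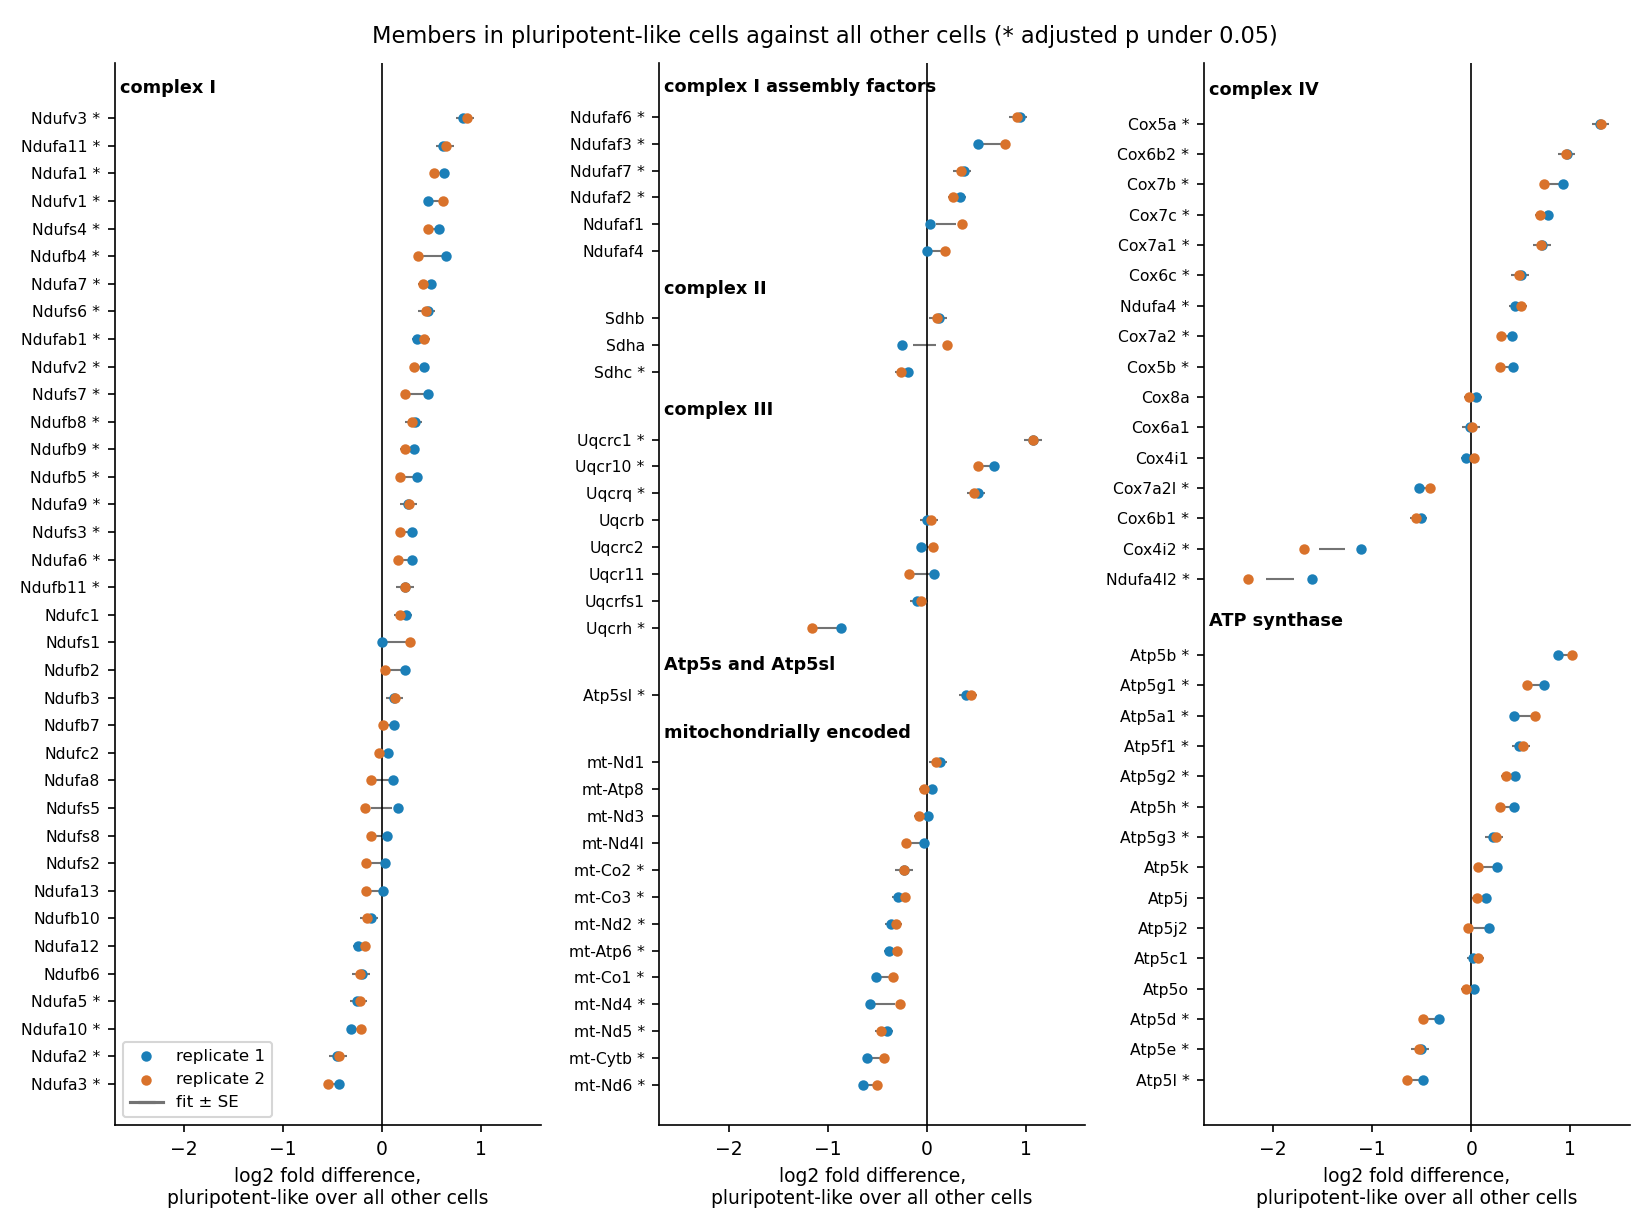
Log2 difference on the log2(level + 0.1) scale (x axis) between pluripotent-like and all other cells for the 98 members tested, with 1 point per library, the fitted value ± SE as a line, and a star for an adjusted p under 0.05 (limma). Nuclear members run from -1.93 (Ndufa4l2) to 1.30 (Cox5a), and the mitochondrial members from -0.57 (mt-Nd6) to 0.11 (mt-Nd1).

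Complex I, which takes electrons from NADH, had 36 subunit genes, of which 18 rose, 4 fell and 14 were not called (median log2 difference 0.22). Of the catalytic core 4 of 7 genes rose, and of the accessory subunits 14 of 29, with medians of 0.25 and 0.21 that were not tested against each other. Ndufv3, an accessory subunit of the NADH-binding module (chr17:31520115-31531331), rose most, from 1.66 and 1.70 in all other cells to 3.01 and 3.17 in pluripotent-like cells (log2 0.84, SE 0.09, adjusted p = 1.5e-05). Ndufv1, the core flavoprotein of that module, was 1.05 and 1.13 against 0.733 and 0.704 (log2 0.54). Among the 4 that fell were Ndufa3, at 2.08 and 1.70 against 2.85 and 2.53 (log2 -0.49), and Ndufa2 (log2 -0.44), both accessory subunits. Ndufa13, also known as Grim19, was 3.82 and 3.16 against 3.80 and 3.56 and was not called. No subunit of this complex reached a 2-fold difference in either direction.

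Of the 7 Ndufaf genes, which help to assemble complex I and are not part of it, 6 were tested and 4 rose (median log2 difference 0.33). Ndufaf6 was 0.319 and 0.302 in pluripotent-like cells against 0.118 and 0.114 (log2 0.92, adjusted p = 7.5e-06), and Ndufaf3 was 0.437 and 0.530 against 0.275 and 0.264 (log2 0.66). Both are low, and with a pseudocount of 1 the difference of Ndufaf6 was only 0.23. Complex II had 3 of 4 genes tested, none of which rose. The one call, named after its value was seen, was Sdhc, a membrane anchor of the complex, at 0.743 and 0.787 against 0.862 and 0.962 (log2 -0.23, adjusted p = 0.042).

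Complex III, the cytochrome bc1 complex, was split: of 8 genes, 3 rose, 1 fell and 4 were not called, with a median log2 difference of 0.02. The share that rose (37.5%) was near the 31.6% of all genes tested, and 12.5% fell beside 46.2%. Uqcrc1, a core subunit facing the matrix (chr9:108936633-108949623), was 2.73 and 2.66 in pluripotent-like cells and 1.24 and 1.21 in all other cells (log2 1.07, SE 0.09, adjusted p = 2.7e-06). The other two that rose, named after their values were seen, were the small subunits Uqcr10 (log2 0.60) and Uqcrq (log2 0.50). Uqcrh, the hinge protein of the complex (chr4:116066965-116075071), went the other way, at 4.02 and 3.59 against 7.40 and 8.11 (log2 -1.01, SE 0.10, adjusted p = 9.6e-06). Its level in pluripotent-like cells lay below that of each other cluster in both libraries, the next lowest being 6.39 and 6.71 in cluster 5. The differences of Uqcrc1 and Uqcrh were similar within the depth window (log2 0.88 and -0.92) and against the proliferating clusters (1.00 and -0.90).

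Complex IV, cytochrome c oxidase, had both the largest rises and the largest falls: of 16 genes tested, 9 rose, 4 fell and 3 were not called (median log2 difference 0.36). Cox5a, a nuclear-encoded subunit (chr9:57521274-57532426), showed the largest rise of any member. It was 10.5 and 10.2 in pluripotent-like cells against 4.19 and 4.07 in all other cells (log2 1.30, SE 0.09, adjusted p = 7.1e-07), with no overlap between the states. Cox7b, an X-linked subunit, was 7.68 and 6.95 against 4.0 and 4.12 (log2 0.83), and Cox7c was 17.1 and 15.4 against 10.0 and 9.45 (log2 0.73). The last 300 bases of the Cox7c transcript are at least 95% identical to another gene over at least 200 bases, so its counts may be shared. Cox4i1, the usual isoform of the first nuclear subunit of the complex, was 11.1 and 11.8 against 11.5 and 11.6 and was not called. Cox8a and Cox6a1 were not called either (log2 0.01 and -0.00), so the rise of complex IV transcripts was uneven from subunit to subunit.

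The members that fell in complex IV all belong to isoform families, and these families changed in composition. Shares within a family are of UMIs, each from 1 transcript end, and not per length. Ndufa4l2 (chr10:127514967-127517154), a paralogue of the complex IV subunit Ndufa4 that is known to be induced in low oxygen, was 0.462 and 0.553 in pluripotent-like cells and 1.62 and 3.01 in all other cells (log2 -1.93, SE 0.14, adjusted p = 9.2e-07). Ndufa4 itself was 5.72 and 5.87 against 4.20 and 4.11 (log2 0.47), a call lost against clusters 5, 6 and 8 (log2 0.21). Ndufa4l2 therefore gave 7.17% and 8.17% of the UMIs of the pair in the pluripotent-like state, compared with 23.3% and 35.1% elsewhere. Its size depended on the cells compared, as it was -1.08 within the depth window, -0.60 against clusters 5, 6 and 8 and -1.11 with a pseudocount of 1, still called lower in each. Cox4i2 (chr2:152754173-152765037), the isoform of Cox4i1 that is known from lung and from low oxygen, was 0.0175 and 0.0249 against 0.154 and 0.304 (log2 -1.40, SE 0.13, adjusted p = 5.5e-06), or 0.191% and 0.211% of the pair against 1.21% and 2.27%. As a scarce transcript its difference ran from -0.26 with a pseudocount of 1 to -2.87 with 0.01.

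Cox6b2 (chr7:4751792-4753094), an isoform known from testis, rose from 1.78 and 2.25 to 3.58 and 4.45 (log2 0.96, SE 0.09, adjusted p = 5.7e-06), while the common isoform Cox6b1 fell from 6.19 and 6.10 to 4.33 and 4.11 (log2 -0.53). The share of Cox6b2 in the pair was thus 44.2% and 51.1% in the pluripotent-like state, compared with 23.4% and 26.7% elsewhere. Cox7a2 rose (log2 0.36, but 0.15 and not called against clusters 5, 6 and 8) and Cox7a2l, a related protein known to help join complexes III and IV, fell from 4.37 and 4.35 to 2.99 and 3.22 (log2 -0.48). Cox7a1, known from muscle, stayed low but rose from 0.0929 and 0.124 to 0.217 and 0.264 (log2 0.71). Cox7b2 (chr5:71442824-71548205), another isoform known from testis, was under the filter on low values and was not tested. It had 72 and 314 UMIs in pluripotent-like cells, 6 and 16 in all other cells and 0 in fibroblast-like cells of either library. Per 10000 UMIs of the state this was 0.170 and 0.303 against 0.00120 and 0.00295, while 0 counts allow up to 0.00801 and 0.0134 in fibroblast-like cells (3 counts per library, for counting error only), which puts pluripotent-like cells at least 21.2-fold (replicate 1) and 22.7-fold (replicate 2) above them. Cox6a2, Cox8b and Cox8c were nearly absent, with at most 18 UMIs in any state and library.

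**Figure D3:**
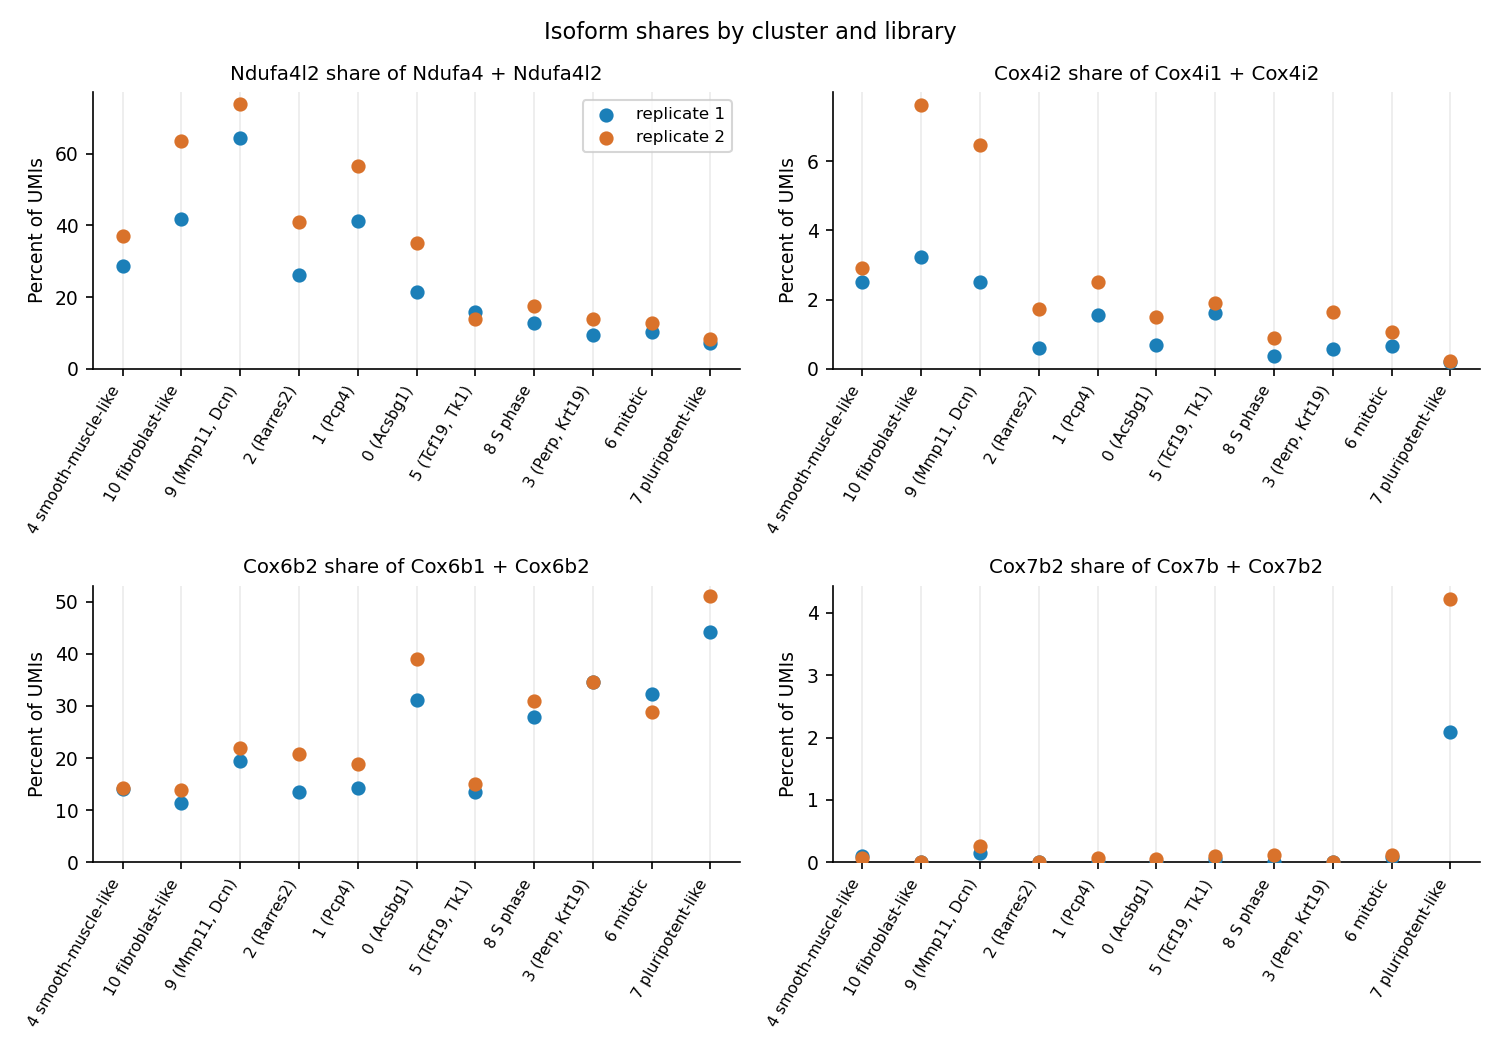
Share of UMIs (percent, y axes) of Ndufa4l2, Cox4i2, Cox6b2 and Cox7b2 within their isoform pairs in each of the 11 clusters (x axes), 1 point per library. The share of Ndufa4l2 runs from 7.17% and 8.17% in pluripotent-like cluster 7 to 64.3% and 73.9% in cluster 9, while that of Cox6b2 is highest in cluster 7 at 44.2% and 51.1%.

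In the ATP synthase 7 of 15 genes rose, 3 fell and 5 were not called (median log2 difference 0.16). The catalytic beta subunit Atp5b (chr10:128083273-128090391) rose most, from 5.87 and 5.74 to 10.8 and 11.7 (log2 0.94, SE 0.09, adjusted p = 8.2e-06), and the alpha subunit Atp5a1, its partner in the catalytic head, rose from 3.27 and 3.27 to 4.44 and 5.17 (log2 0.54). All 3 genes of the membrane ring, which encode an identical mature protein, were higher, namely Atp5g1 (6.30 and 6.05 to 10.6 and 8.95, log2 0.65), Atp5g2 (log2 0.39) and Atp5g3 (log2 0.23, adjusted p = 0.037, reversed to -0.06 against clusters 5, 6 and 8). The call of Atp5g3 was also lost within the depth window (log2 0.03), without the replicate block, with a pseudocount of 0.01 and from summed UMIs. The 3 that fell were small subunits: Atp5l of the membrane part, from 8.79 and 8.94 to 6.25 and 5.67 (log2 -0.57), and Atp5e and Atp5d of the central stalk (log2 -0.52 and -0.41). The end of Atp5l is also at least 95% identical to 2 pseudogenes. Atpif1, the natural inhibitor of the enzyme and not a subunit, was 8.86 and 9.41 against 7.53 and 7.74 (log2 0.26, adjusted p = 0.025). The 3 X-linked members, Ndufa1, Ndufb11 and Cox7b, all rose, by log2 differences of 0.57, 0.23 and 0.83. That of Ndufb11 was not called within the depth window (0.21), with a pseudocount of 0.01 (0.24) or against fibroblast-like cells (0.23, limma adjusted p = 0.13). The end of Ndufb11 is also at least 95% identical to 1 pseudogene.

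The mitochondrially encoded genes moved the other way. Of the 13, 9 fell in pluripotent-like cells, 4 were not called and 0 rose (limma, 69.2% lower beside 46.2% of all genes). At an unadjusted p under 0.05 also none rose, and 1 rose with a pseudocount of 1 or with centring on the median of all genes. The median log2 difference was -0.34 (-0.36 and -0.27), below the all-gene median of -0.16, and ran from -0.36 to -0.16 in the alternatives. mt-Cytb (chrM:14145-15288), the cytochrome b of complex III, was 21.2 and 21.4 against 32.2 and 29.0 (log2 -0.52, SE 0.09, adjusted p = 6e-04), and mt-Co1, the catalytic subunit of complex IV, was 44.2 and 52.1 against 62.8 and 65.8 (log2 -0.42). mt-Atp6, a membrane subunit of the ATP synthase, was 81.1 and 85.8 against 105 and 105 (log2 -0.34). The largest fall on the log2 scale was that of mt-Nd6 (chrM:13552-14070), the one protein-coding gene of the light strand, at 0.0490 and 0.0738 against 0.132 and 0.146 (log2 -0.57). These levels lie near the pseudocount of 0.1, so the size and rank of this fall depend on it. Against fibroblast-like cells the log2 difference of mt-Nd6 was -0.48, but -0.08 and not called with a pseudocount of 1. Against the falls of mt-Nd2, mt-Nd4 and mt-Nd5 (log2 -0.34, -0.42 and -0.43), the complex I gene mt-Nd1 was 32.9 and 30 against 30 and 28.1 and was not called (log2 0.11), and neither were mt-Nd3, mt-Nd4l and mt-Atp8 (log2 -0.03, -0.12 and 0.02). The falls of mt-Co2 and mt-Co3 (log2 -0.23 and -0.26) were the smallest called, and both lost their call within the depth window and against clusters 5, 6 and 8. The call of mt-Atp6 was lost within the depth window (log2 -0.19), and those of mt-Co1 and mt-Nd4 against clusters 5, 6 and 8 (log2 -0.16 and -0.23), where 5 of the 13 were called lower. The call of mt-Nd4 was also lost without the filter on low values.

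Neighbouring mitochondrial genes share bases, which bears on how reads were assigned. mt-Atp8 and mt-Atp6 overlap by 43 bases on the same strand (chrM:7927-7969, GRCm38), printed here because reads ending inside it belong to both genes; mt-Nd4l and mt-Nd4 share 7 bases, mt-Atp6 and mt-Co3 share 1, and mt-Nd5 and mt-Nd6 share 14 on opposite strands.
mt-Atp8 and mt-Atp6: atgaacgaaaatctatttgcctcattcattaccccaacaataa
By the same measure of the last 300 bases, mt-Atp6, mt-Co1, mt-Co2, mt-Co3, mt-Nd2, mt-Nd3 and mt-Nd4l resemble nuclear pseudogenes, so their counts could be split or lost to some extent in any state. The per-cell share of mitochondrial RNA had medians of 3.27% and 3.35% in pluripotent-like cells and 4.05% and 4.09% in all other cells. Few cells lay near the limit of 9%, as a share of 8% was reached by 0% and 0.513% of cells in the pluripotent-like state and by 1.32% and 0.766% elsewhere.

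Against the fibroblast-like cells alone nuclear members were again more often higher than lower, and mitochondrial ones lower. Both comparisons share the pluripotent-like profiles, so they are not independent. Nuclear members were 44 higher, 9 lower and 32 not called of 85 (51.8% and 10.6%, beside 32.1% and 45% of all genes, 77.1% called in any direction), with a median log2 difference of 0.37 against -0.18 for all genes, and SEs of 0.14 to 0.18. Centring on the median of all genes moved the share of higher genes among all genes called from 41.6% to 52.8%, and the nuclear members then had 64 higher and 7 lower. Ndufa4l2 was 3.16 and 7.38 in fibroblast-like cells (log2 -3.03, limma adjusted p = 2e-13) and Cox4i2 was 0.337 and 0.870 (log2 -2.43), so that Ndufa4l2 made up 41.9% and 63.7% of its pair there. By library the log2 differences were -2.54 and -3.52 for Ndufa4l2 and -1.89 and -2.96 for Cox4i2. This is a wider spread than their pooled SEs of 0.17 and 0.18 convey. Cox6b2 was 0.807 and 0.907 (log2 2.1), Cox5a 3.22 and 3.07 (log2 1.69) and Atp5b 3.85 and 3.99 (log2 1.5), each below the pluripotent-like levels in both libraries. Ndufv3, in contrast, was 2.43 and 2.74 in fibroblast-like cells and was not called (log2 0.25, adjusted p = 0.092). All 6 complex I assembly factors tested were higher, 8 of 15 ATP synthase genes rose and 1 fell, and 15 of 36 complex I subunits rose and 4 fell. Of the mitochondrial genes 9 of 13 fell and 0 rose (limma; 1 rose in 3 of the alternatives), with a median of -0.39: mt-Cytb was 39.4 and 30.8 in fibroblast-like cells (log2 -0.71) and mt-Co1 75.7 and 77.1 (log2 -0.67). When the filter on low values was dropped, 29 nuclear members were higher, 4 lower and 2 mitochondrial members lower, and the calls of Ndufa4l2, Cox4i2, mt-Cytb and mt-Co1 given here were lost with their log2 differences unchanged, as was that of Uqcrh. With a pseudocount of 1 the differences were -1.97 for Ndufa4l2, -0.63 for Cox4i2 (-4.16 with 0.01) and 1.43 for Cox6b2.

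Related mitochondrial genes, taken as lists, were mixed. Of 26 assembly factors of complexes II to V tested, 8 rose and 9 fell (30.8% and 34.6%, median log2 difference -0.15 against all other cells), which in rises and median is near the 31.6% higher, 46.2% lower and median of -0.16 of all genes tested. Coa7 and the copper chaperone Cox17 rose (log2 1.23 and 0.86), whereas the complex IV assembly factors Cox20, Coa3 and Cox14 fell (log2 -0.97, -0.59 and -0.56). Of 5 assembly factors of complex I outside the Ndufaf family, 4 rose, Ecsit and Nubpl most (log2 0.68 and 0.60), and Acad9 fell (log2 -0.42). Acad9 was 0.0971 and 0.0963 against 0.169 and 0.158, near the pseudocount of 0.1. Against fibroblast-like cells its log2 difference was -0.37, but -0.07 and not called with a pseudocount of 1. Among 18 electron carriers and exchangers, 10 rose and 5 fell (55.6% and 27.8%, median 0.26). Among these tested genes, 2 ADP/ATP exchangers of the inner membrane moved in opposite directions. Slc25a5 was 15.3 and 13.9 in pluripotent-like cells against 5.71 and 5.75 (log2 1.33). Slc25a4, the isoform known from heart and muscle, was 2.99 and 3.09 against 9.98 and 9.42 (log2 -1.64). Ucp2, an inner membrane carrier of the uncoupling protein family, was 1.80 and 1.73 against 0.399 and 0.164 (log2 2.36). With a pseudocount of 1 the differences of the scarcer genes were smaller, at 0.32 for Coa7, -0.33 for Cox20 and 1.12 for Ucp2.

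Factors that copy and transcribe mitochondrial DNA were mixed: of 8 tested, 3 rose, 1 fell and 4 were not called (37.5% and 12.5%). The share that rose was near the 31.6% of all genes tested, of which 46.2% fell. Tfam, which packages and helps to transcribe that DNA, was 0.550 and 0.488 against 0.267 and 0.258 (log2 0.77). The single-strand binding protein Ssbp1 rose (log2 0.80) and so did Lrpprc, which stabilises mitochondrial messenger RNA (log2 0.68). The transcription factor Tfb2m was 0.0708 and 0.0819 against 0.147 and 0.133 (log2 -0.44), near the pseudocount of 0.1. Against fibroblast-like cells the log2 difference of Tfb2m was -0.34, but -0.06 and not called with a pseudocount of 1. Of 4 tested regulators of respiratory genes, Nrf1 (log2 0.80) and Pprc1 (log2 1.26) rose and Esrra fell (log2 -0.65). Esrra was 0.0878 and 0.103 against 0.213 and 0.201, near the pseudocount of 0.1. Pprc1 was 0.401 and 0.307 against 0.103 and 0.0746, and ran from 0.31 with a pseudocount of 1 to 1.88 with 0.01. Its mean in all other cells, 0.0889, is under the filter of 0.1. Pprc1 was thus tested only through its level in pluripotent-like cells, and its rise is partly set by the filter. In the tricarboxylic acid cycle 5 of 13 genes rose (38.5%, also near the 31.6% of all genes), led by Idh3g and Idh2 (log2 1.06 and 0.88). There 3 fell (23.1%), led by Dlst and Dld (log2 -0.61 and -0.51). Glycolysis was set beside these as a comparison, and 11 of its 15 tested genes rose and 2 fell (73.3% and 13.3%, median log2 difference 0.66). Hexokinase 2 (Hk2) was 4.83 and 4.58 against 1.16 and 1.26 (log2 1.88), Ldhb was 2.84 and 3.97 against 0.430 and 0.558 (log2 2.55), and Hk1 fell (log2 -0.84). With a pseudocount of 1 Ldhb was at 1.55 and Hk1 at -0.21. Cytosolic ribosomal protein genes, which make up much of the same UMIs, had a median of 0.06, with 29 of 101 higher and 9 lower. Against fibroblast-like cells their median was 0.36, with 60 of 101 higher and 2 lower, so that the nuclear respiratory members (median 0.37, 51.8% higher) did not stand above them in that comparison.

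Over all 11 clusters the nuclear sum was highest in pluripotent-like cluster 7 (309.8 ± 12.9 UMIs per 10000, SD over 2 libraries). Cluster 3 (293.5 ± 2.7) and the mitotic cluster 6 (292.4 ± 7.1) followed and overlapped each other. Cluster 3 was led by Perp, Krt19 and Isg15 and was left unnamed, as only 2 of 11 epithelial markers were at least 2-fold higher in it. S-phase cluster 8 and clusters 5 and 0 came next and overlapped, then clusters 1, 4, 10 and 2, again overlapping, and cluster 9, led by Mmp11, Dcn and Gpx3, was lowest at 240.3 ± 0.9. The mitochondrial sum ran nearly the opposite way, from 454.0 ± 37.7 in fibroblast-like cluster 10 and 451.9 ± 8.0 in smooth-muscle-like cluster 4 to 359.8 ± 14.5 in the mitotic cluster 6 and 339.9 ± 11.7 in cluster 7. Across the 11 clusters the sums had r = -0.87 in replicate 1 and -0.72 in replicate 2, a description in which points share a library and all levels are shares of the same total. By complex, the pluripotent-like cluster lay above each other cluster in both libraries for complex IV alone (100.2 to 104.7 against at most 90.2). It lay below each other cluster for mt-Cytb (21.2 to 21.4 against at least 24.7) and for the mitochondrial ATP synthase genes (82.6 to 86.9 against at least 92.5).

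Of the 85 nuclear members, 37 had their highest mean level in cluster 7 and 12 their lowest, while cluster 3 held 13 and cluster 6 held 11 of the highest. Among all genes tested 25.3% were highest and 37.7% lowest in cluster 7. Cluster 9 held 35 of the lowest nuclear levels, and it was also among the shallowest, with median UMIs of 9738 and 9572. The share over all genes was taken for cluster 7 alone. The counts of clusters 3, 6 and 9 therefore cannot be read as particular to the members. Of the 13 mitochondrial genes, 8 were lowest and 0 highest in cluster 7. The median range over clusters was 0.69 on the log2 scale for nuclear and 0.52 for mitochondrial members, against 1.05 for all genes. Genes were not matched for level here, and counting error widens the range of scarce genes. The 5 nuclear members with the widest ranges were Ndufa4l2 (11.3-fold), Cox4i2 (5.93-fold), Cox6b2 (4.30-fold), Cox5a (3.46-fold) and Atp5b (2.83-fold), with the pseudocount in place.

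These wide members fell into patterns of their own. Ndufa4l2 reached 5.05 and 8.46 in cluster 9, where it outnumbered Ndufa4 (64.3% and 73.9% of the pair) and was among the 10 leading genes of the cluster, and 3.16 and 7.38 in cluster 10. In clusters 3, 5, 6, 7 and 8 it was at most 1.10 in either library. Cox4i2 followed the same order at its top, with 0.361 and 0.876 in cluster 9 and 0.337 and 0.870 in cluster 10. Cox6b2 was not particular to pluripotent-like cells: it was 3.76 and 4.02 in cluster 3 and 2.78 and 3.70 in cluster 0, overlapping with the 3.58 and 4.45 of cluster 7, and was lowest in cluster 10. Cox5a, in contrast, stood at 10.5 and 10.2 in cluster 7 and no higher than 5.44 in any other cluster and library. Atp5b was graded, from 3.85 and 3.99 in cluster 10 through 7.87 and 8.39 in cluster 3 to 10.8 and 11.7 in cluster 7. Among the mitochondrial genes mt-Cytb had a 1.79-fold range, from 21.3 in cluster 7 to 38.2 in cluster 4 as means of both libraries.

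**Figure D4:**
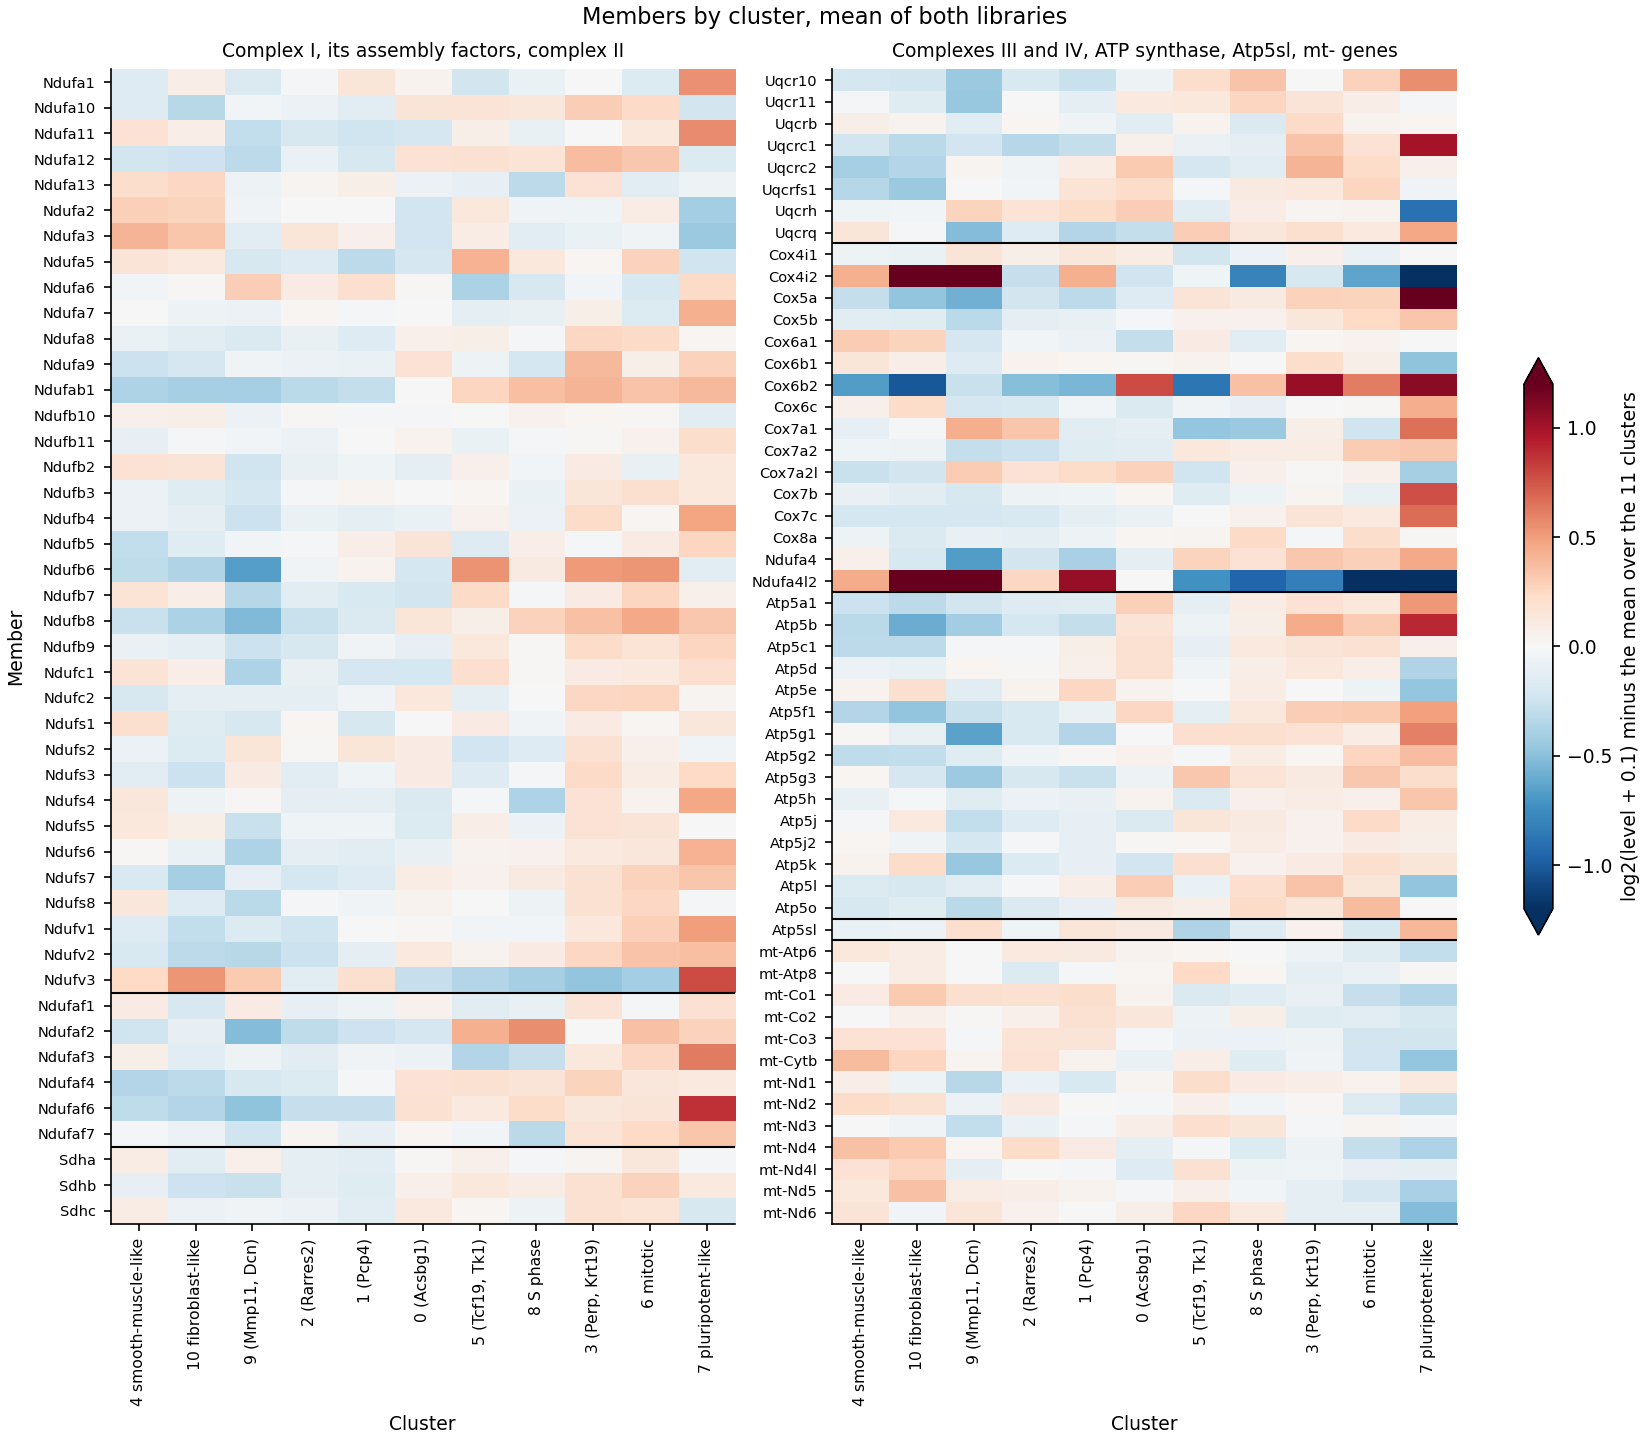
Mean of both libraries of log2(level + 0.1) of each of the 98 members tested (rows) in the 11 clusters (columns), minus the mean over clusters, with red above and blue below. Cluster 7 (last column of each panel) is red for Cox5a, Uqcrc1 and Atp5b and blue for Uqcrh and most mt- genes, while Ndufa4l2 and Cox4i2 are red in clusters 9 and 10.

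Between the libraries most members were close, as were most genes. The log2 ratio of replicate 2 to replicate 1 over all cells had a median of -0.00 for the 85 nuclear members and -0.01 for the 13 mitochondrial ones, against -0.06 for all genes. No member differed 2-fold, and 2 of the 85 nuclear and 0 of the 13 mitochondrial members differed 1.5-fold. Of the 7131 genes 18 differed 2-fold and 120 differed 1.5-fold, so the share at 1.5-fold was no lower among the members than among all genes. The 2 members were Ndufa4l2 (1.56 and 2.77, log2 0.79) and Cox4i2 (0.148 and 0.276, log2 0.60), and both were higher in replicate 2 in 11 of 11 clusters, also with equal weight to each cluster (log2 0.77 and 0.70). With 1 library on each side there is no test, and the source of this difference cannot be told apart from the library. The falls of both genes in pluripotent-like cells were seen in each library, by 1.61 and 2.26 for Ndufa4l2 and by 1.11 and 1.70 for Cox4i2 on the log2 scale.

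Of the 7 nuclear members below the filter, 3 are not isoforms of complex IV, and their levels are given as UMIs per 10000 UMIs of the state. Sdhd, a membrane anchor of complex II, was 0.0686 and 0.0493 in pluripotent-like cells (29 and 51 UMIs) and 0.0879 and 0.0786 in all other cells. The complex I assembly factor Ndufaf5 was 0.0875 and 0.0783 (37 and 81 UMIs) against 0.0727 and 0.0696. Atp5s was 0.0284 and 0.0879 (12 and 91 UMIs) against 0.0467 and 0.0681, and its libraries went opposite ways. No test was run on them. In all, 16 of 104 members searched had another gene with a similar transcript end, and in 12 of them this was a pseudogene. Uqcrh and Cox5a had none.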

How the data were processed

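The 2 libraries were made with Chromium v2 3′ chemistry. Per the study's methods, the authors used Cell Ranger 2.1.1 (mm10 reference 1.2.0) and Seurat 3.1.2, and filtered cells to over 1500 and under 6000 detected genes, with under 9% mitochondrial RNA. Doublet removal is not stated, and none was done here. The deposited values are the natural log of 1 plus UMIs per 10000 of each cell, and UMIs were recovered from them (100% whole within 0.01). Members and lists were chosen with earlier results of these data known. Cells were clustered with scanpy 1.11.5 (2000 variable genes, 30 components, 15 neighbours, Leiden resolution 1), leaving 817 genes out, including the members and lists. Per library and state, mean levels were tested with limma 3.58.1 in R 4.3.3 on log2(level + 0.1), with library as a block, over 7131 genes of mean level 0.1 or more, with Benjamini-Hochberg adjustment at 0.05. The replicate pairing is the library itself, which holds both states. Libraries are the replicates, and nothing in the labels says that they were separate cultures. The p-values therefore rest only on the spread between these libraries, which limma largely pools over all genes tested. Intervals and limits cover counting error only. Genes were placed by GENCODE M21 (GRCm38), of which 214 symbols had no unique place. Transcript ends (300 bases) were compared by BLAST 2.17.0. On simulated data with 200 of 7131 genes changed 4-fold, 99% (against all other cells) and 98.5% (against fibroblast-like cells) were recovered, with 2.46% and 7.51% false calls. In the data, nuclear members had median log2 differences of 0.21 and 0.37 in these comparisons, where 77.8% and 77.1% of all genes were called. The rate of recovery and of false calls in such a setting was not tested. Named were, per comparison, the 10 nuclear members with the largest rise and the 10 with the largest fall among those called the same way in both libraries, all mitochondrial, isoform-family and X-linked members, up to 3 genes per pathway list and direction, and the 5 members of widest range over clusters. Others are named after their values were seen. Alternatives were pseudocounts of 1 and 0.01, no filter, no block, other scalings, a window of depth, other clusterings and leaving out a library.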

Additional observations from a re-analysis of the deposited data

How the results depend on the processing

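Of the summary values under the alternatives, 143 stayed within the replicate spread or within 1.5 times the count, and 39 moved. No median changed sign. Of the values of named genes, 1739 kept direction and call, 25 gained and 124 lost a call, and 26 reversed, of which Atp5g3 alone had been called. The cause was not tested. The fit without the replicate block (no pairing of states by library) called 40 nuclear members higher and 11 lower and 8 mitochondrial members lower against all other cells, and 44, 8 and 8 against fibroblast-like cells, so no count moved by over 1.5 times. The comparison with clusters 5, 6 and 8 was chosen after the clusters were seen. The depth window could not be run against fibroblast-like cells, with 24 cells in replicate 2. Libraries of 2 limit every test, and scarce genes such as Cox4i2 depend on the pseudocount.

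Against all other cells, the median log2 difference of nuclear members was 0.101 with a pseudocount of 1, 0.376 with centring on all genes, 0.178 from summed UMIs, 0.0979 in the depth window, 0.0963 against clusters 5, 6 and 8, and 0.186 to 0.229 leaving out a library. That of mitochondrial members was -0.252 with a pseudocount of 1 and -0.175 centred, each with 1 called higher, -0.195 in the depth window, -0.162 against clusters 5, 6 and 8, and -0.364 to -0.267 leaving out a library. Centring and the comparison with clusters 5, 6 and 8 each called 5 lower. The summed ratios in the depth window and against clusters 5, 6 and 8 were 1.12 and 1.11 (nuclear), 0.899 and 0.879 (mitochondrial) and 0.803 and 0.793 (mitochondrial to nuclear), and ranged from 1.13 to 1.19, 0.792 to 0.837 and 0.665 to 0.738 leaving out a library.

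Against fibroblast-like cells, the nuclear median was 0.166 with a pseudocount of 1, 0.552 scaled without mt- and ribosomal genes, 0.598 centred, 0.333 from summed UMIs, 0.316 at resolution 2, 0.309 with members in the clustering and 0.310 to 0.323 leaving out a library. Without the filter 29 were higher and 4 lower, and 2 mitochondrial members were lower. The mitochondrial counts were 1 higher with a pseudocount of 1, 1 higher and 5 lower scaled without mt- and ribosomal genes, and 1 higher and 4 lower centred, where the median was -0.159; leaving out a library gave -0.557 to -0.270. Without ribosomal genes in the scale the summed ratios were 1.40 (nuclear) and 0.863 (mitochondrial). Leaving out a library they ranged from 1.17 to 1.26, 0.690 to 0.815 and, mitochondrial to nuclear, 0.548 to 0.694.

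Reversed against all other cells were Cox6a1 (0.0274 scaled without mt- and ribosomal genes), with centring Cox4i1 (0.147), Cox6a1 (0.159), Ndufa13 (0.0807), mt-Nd3 (0.127) and mt-Nd4l (0.0437), from summed UMIs Cox4i1 (0.0145), Cox6a1 (0.00526) and Cox8a (-0.00116), in the depth window Cox4i1 (0.0789), Cox6a1 (0.0315), Cox8a (-0.0222), Ndufa13 (0.000976) and Idh3a (-0.221), and against clusters 5, 6 and 8 Atp5g3 (-0.0635), Cox4i1 (0.132), Cox8a (-0.144), Ndufa13 (0.109), mt-Atp8 (-0.0593), mt-Nd1 (-0.0106) and Idh3a (-0.338). Against fibroblast-like cells these were mt-Atp8 (0.0776 scaled without mt- and ribosomal genes, 0.149 centred), Cox7a2l (0.0502 centred) and Idh3b (-0.0850 with members in the clustering, -0.0624 at resolution 2).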
